A study of Rattus norvegicus with 9 samples.

Results

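The 38 genes described here encode plasma proteins that the liver makes for blood clotting and for complement. They were chosen by name and not by their values, though with earlier results of these data known. Of the 38 genes, 22 belong to the clotting system (13 coagulation factors and 9 inhibitors or proteins of fibrin breakdown) and 16 to complement (7 of the classical and lectin pathways, 3 around C3 and the alternative pathway, and 6 of the terminal pathway). They are 38 of 40154 gene rows measured by RNA sequencing in each of 9 rat livers. All 38 were found by symbol, and all 38 passed the filter of at least 1 RPKM (reads per kilobase of gene model, scaled to library size) in 3 or more libraries, which 11124 genes passed. Mannose-binding lectin Mbl2 was near that limit, with 22 to 100 reads per library.

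The livers came from wild-type Sprague-Dawley rats of 5 months, with 3 libraries in each of 3 groups. Normal rats were untreated and had received neither the liver toxin carbon tetrachloride (CCl4) nor a transplant. PBS rats were cirrhotic and were injected with phosphate-buffered saline, and HepLPC rats were cirrhotic and received rat HepLPCs, liver progenitor-like cells derived from hepatocytes. Since the normal rats had neither the injury nor an injection, these cannot be told apart in a comparison with them, and the sources used here do not give sex, cell dose, route or time of sampling. The labels number the replicates 1 to 3 but do not say that each was its own animal. P-values therefore reflect only how far these samples spread, which may be technical. The samples are whole liver, in which fewer cells of a type and less RNA per cell cannot be told apart.

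Hepatocytes secrete most clotting factors as inactive precursors. Proteases of the contact pathway (factors XII and XI, prekallikrein) or tissue factor with factor VII lead through factors IX and X to thrombin, which turns fibrinogen into fibrin. Antithrombin, protein C and protein S limit this cascade, and plasmin dissolves fibrin. Complement is another protease cascade of plasma, started by C1, by mannose-binding lectins or by the alternative pathway. All its routes meet at C3 and end in the membrane attack complex of C5 to C9. In cirrhosis these proteins are read in the clinic as a measure of what the liver still makes, and several of them also respond to inflammation.

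No gene of either system passed the test in any comparison. Differences here and in what follows are log2 fold changes on log2(RPKM + 1), with their standard error (SE), while levels are RPKM, as mean ± SD (n = 3) where averaged. By limma on log2(RPKM + 1), with p-values adjusted by the Benjamini-Hochberg method over all 11124 genes, 0 of 22 clotting genes and 0 of 16 complement genes were called for PBS against normal livers, where 11.3% of all tested genes were called. For HepLPC against PBS livers the counts were again 0 and 0, against 3.07% of all genes, and for HepLPC against normal livers 0 and 0, against 0.0809%. A weighted fit on recovered reads (voom) also called 0 of the 38 in each comparison. An unadjusted p under 0.05 was reached by 1 of 38 genes for PBS against normal, by 0 of 38 for HepLPC against PBS and by 1 of 38 for HepLPC against normal. The shares of all genes under the same limit were 27.3%, 16.1% and 9.31%. That gene was F11 both times, with lower values than in normal livers, as for 3.26% and 1.98% of all genes.

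These genes were deeply covered. Libraries held 17.4 to 21.8 M reads, as recovered from the RPKM values, and 36 of the 38 genes had more than 1000 reads in every library. The exceptions were Mbl2 and F7, the latter with 579 to 968 reads. Mean RPKM over the 9 libraries was above 100 for 29 genes and above 1000 for 7. The highest library was less than 2 times the lowest for 31 of the 38. PBS replicate 1 and HepLPC replicate 2 stood apart from the other 7 libraries, and long genes read low in them. Across the 38 genes the deviation from the group mean correlated with gene-model length (Spearman rho -0.73 for PBS replicate 1, -0.74 for HepLPC replicate 2), and between -0.24 and 0.75 in the rest, as a description over genes that share each library. Deviations within a group balance, so opposite trends in the rest of a group are not separate findings. The pattern was not particular to the 38 genes: over all 11124 tested genes rho was -0.56 and -0.53 in these 2 libraries. Without these 2 libraries the sign of the difference turned for 7 of the 38 genes for PBS against normal, for 8 in HepLPC relative to PBS livers and for 15 in HepLPC relative to normal livers, and such values are given below for the genes with large shifts. The share of this pattern in any result was not tested.

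**Figure D1:**
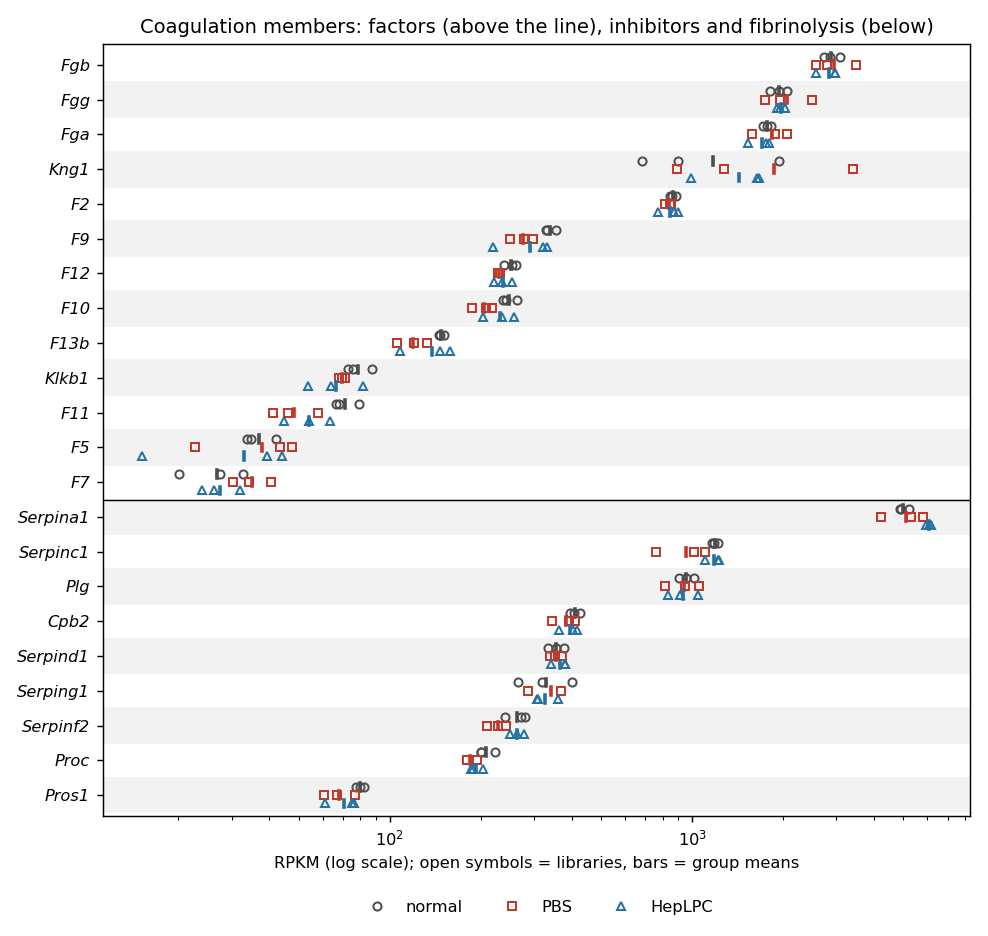
RPKM of the 22 clotting genes on a log axis, with 1 open symbol per library (circles normal, squares PBS, triangles HepLPC) and a bar at each group mean. Levels ran from Serpina1 at 4228 RPKM or more down to F7 and F5, and the 3 groups lie close together on most rows, with the widest scatter for Kng1 and F5.

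Fibrinogen, the soluble precursor of the fibrin clot, is built from the chains encoded by Fga, Fgb and Fgg, and these were the most abundant coagulation factors. Fgb was at 3074, 2726 and 2851 RPKM in the normal libraries, 3489.7, 2787 and 2575 RPKM in the PBS libraries and 2965, 2567 and 2967 RPKM in the HepLPC libraries. Fga was at 1819, 1712 and 1773 RPKM in the normal libraries, 2056, 1877 and 1576 RPKM in the PBS libraries and 1798, 1535 and 1759 RPKM in the HepLPC libraries, and Fgg at 1945, 1806 and 2058 RPKM in the normal libraries, 2489, 1954 and 1742 RPKM in the PBS libraries and 1908, 1945 and 2033 RPKM in the HepLPC libraries. PBS replicate 1 was the highest library for all 3 chains, and PBS replicate 3 was below every normal library for all 3, so the PBS group spanned the normal group. The log2 fold changes for PBS against normal were 0.05 for Fga (adjusted p = 0.877), 0.02 for Fgb (adjusted p = 0.947) and 0.08 for Fgg (adjusted p = 0.805). For HepLPC against PBS they were -0.11, -0.05 and -0.06, with 95% intervals of -0.46 to 0.24, -0.43 to 0.33 and -0.43 to 0.32.

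The chains kept nearly fixed proportions in every library. The ratio of Fgb to Fga in RPKM lay between 1.48 and 1.70, a range of 1.14 times, and that of Fgg to Fga between 1.04 and 1.27, a range of 1.22 times. Over the 7 libraries other than PBS replicate 1 and HepLPC replicate 2, the second range narrowed to between 1.04 and 1.16. The highest Fgg to Fga ratios, 1.21 and 1.27, were those of PBS replicate 1 and HepLPC replicate 2. The Fgb to Fga ratio averaged 1.63 ± 0.0522 in normal, 1.61 ± 0.109 in PBS and 1.67 ± 0.0188 in HepLPC libraries (SD, n = 3 each), and the groups overlapped in every comparison (2-sided exact permutation test, p = 0.9 for PBS against normal, 0.5 for HepLPC against PBS and 0.4 for HepLPC against normal, where 0.1 is the smallest that 3 against 3 can give).

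The promoters of these chains are shown because the RNAs of the 3 genes kept close proportions across libraries and the genes sit side by side on rat chromosome 2. Each sequence holds the 250 bases before the transcription start (RefSeq, build GRCr8), with Fga at chr2:170671919-170672168 on the plus strand, upstream of the outermost of 2 listed starts, Fgb at chr2:170700876-170701125 on the minus strand and Fgg at chr2:170652833-170653082 on the plus strand. Capitals mark CTGGGA, the core of the interleukin-6 response element described for fibrinogen genes, and GTTAAT, part of the recognition site of the hepatocyte factor HNF1, on either strand, so that TCCCAG and ATTAAC are the same motifs on the opposite strand.
Fga: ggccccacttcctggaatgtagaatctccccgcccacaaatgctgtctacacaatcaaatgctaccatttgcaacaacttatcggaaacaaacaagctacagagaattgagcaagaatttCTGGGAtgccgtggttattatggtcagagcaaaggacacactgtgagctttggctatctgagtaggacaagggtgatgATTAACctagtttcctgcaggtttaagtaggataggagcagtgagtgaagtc
Fgb: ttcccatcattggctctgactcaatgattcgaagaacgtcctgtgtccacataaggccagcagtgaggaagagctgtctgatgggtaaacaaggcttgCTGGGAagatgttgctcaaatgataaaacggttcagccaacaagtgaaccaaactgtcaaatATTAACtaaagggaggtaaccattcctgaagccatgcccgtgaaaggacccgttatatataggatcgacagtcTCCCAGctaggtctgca
Fgg: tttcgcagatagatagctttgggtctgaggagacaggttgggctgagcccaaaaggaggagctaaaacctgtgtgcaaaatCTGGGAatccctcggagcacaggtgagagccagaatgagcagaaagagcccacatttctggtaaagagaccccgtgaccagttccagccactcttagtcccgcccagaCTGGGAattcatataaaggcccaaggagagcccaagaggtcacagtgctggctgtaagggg
CTGGGA begins 130 bases before the start in Fga, 152 and 17 bases before it in Fgb, and 169 and 61 bases before it in Fgg. GTTAAT begins at 52 bases in Fga and at 90 bases in Fgb, and these letters are not in the Fgg window.

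Promoter windows of the same length were at hand for 30 of the 38 genes (19 clotting, 11 complement) and for 27457 starts in all. GTTAAT was in 9 of the 30 (30%), against 6.49% of all windows, and CTGGGA in 14 of 30 (46.7%), against 25.8%. TTNCNNAA, a loose core of the C/EBP factors, was in 21 of 30 (70%), against 36.8%, and TTCNNNGAA, the palindrome of STAT factors, in 5 of 30 (16.7%), against 7.5%. CTGGGA was in 11 of 19 clotting windows (57.9%) and in 3 of 11 complement windows (27.3%), while GTTAAT was in 6 of 19 (31.6%) and 3 of 11 (27.3%). TATAAA was in 1 of 30 windows (3.33%), against 13.1%, and CCAAT in 9 of 30 (30%), against 34.3%. All motifs were searched on both strands and can overlap one another. Median GC content was 48.6% for the 30 windows and 52% for all. These matches describe letters, and none of these data measured binding.

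Prothrombin (F2), the precursor of thrombin, was at 882, 846 and 861 RPKM in the normal libraries, 811, 849 and 846 RPKM in the PBS libraries and 868, 769 and 899 RPKM in the HepLPC libraries. The groups overlapped, and the whole range over 9 libraries was 1.17 times. Its log2 fold changes were -0.05 (SE 0.13) for PBS against normal, 0.01 (SE 0.13) for HepLPC against PBS and -0.03 (SE 0.13) for HepLPC against normal. The 95% intervals of all 3 stayed within 1.5-fold either way, that for PBS against normal being -0.33 to 0.24.

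Among the proteases of the contact pathway, factor XI (F11) showed the lowest values in PBS livers relative to normal. F11 was at 66.3, 79.3 and 67.8 RPKM in the normal libraries, 45.9, 58.0 and 41.2 RPKM in the PBS libraries and 54.1, 44.8 and 63.6 RPKM in the HepLPC libraries. Every PBS library and every HepLPC library lay below the lowest normal library, and the PBS and HepLPC groups overlapped. The difference was -0.56 (SE 0.17) for PBS against normal (95% interval -0.94 to -0.17, unadjusted p = 0.00939, adjusted p = 0.0685), and -0.40 (SE 0.17) for HepLPC against normal (95% interval -0.78 to -0.01, unadjusted p = 0.0443, adjusted p = 0.533). Its adjusted p for PBS against normal ran from 0.0213 to 0.236 over 18 alternatives. It passed in 3 of them: after rescaling by the median of ratios (0.0213), without PBS replicate 2 (0.0479) and without HepLPC replicate 2 (0.0363). F11 relative to F2 was lower in all 3 PBS libraries than in all 3 normal libraries too, at 0.0579 ± 0.00987 against 0.0825 ± 0.00983 (exact permutation p = 0.1, the smallest possible).

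Of the other contact proteins, factor XII and prekallikrein shared the lower position of PBS livers, and kininogen did not. Factor XII (F12) averaged 251 ± 10.8, 230.4 ± 2.34 and 237 ± 15.8 RPKM in normal, PBS and HepLPC livers, and prekallikrein (Klkb1), which factor XII activates, 78.5 ± 7.70, 69.6 ± 1.64 and 66.3 ± 14.1 RPKM. Both were below every normal library in all 3 PBS libraries, with differences of -0.12 (adjusted p = 0.527) and -0.17 (adjusted p = 0.541). Kininogen (Kng1), the cofactor of this pathway and precursor of bradykinin, had the widest spread of the 38 genes. It was at 897, 1941 and 683 RPKM in the normal libraries, 3409, 893 and 1275 RPKM in the PBS libraries and 1639, 1663 and 994 RPKM in the HepLPC libraries. The groups overlapped, and PBS replicate 1 was 3.19 times the mean of the other PBS libraries. The log2 fold change was 0.57 for PBS against normal (SE 0.52, 95% interval -0.59 to 1.73, adjusted p = 0.524), 0.01 without PBS replicate 1 and HepLPC replicate 2.

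The identity of that row is uncertain. In the rat several kininogen genes resemble each other closely, including the inflammation-responsive T-kininogens, and 3 RefSeq genes carry Kng1 as symbol or synonym. A row named Kng1l1, singled out after its values were seen, was at 745, 1272 and 556 RPKM in the normal libraries, 2146, 766 and 1112 RPKM in the PBS libraries and 1008, 649 and 869.7 RPKM in the HepLPC libraries. Its highest library was also PBS replicate 1. Its difference for PBS against normal was 0.60 (SE 0.40, adjusted p = 0.376). The sources used here do not say how reads shared between these copies were counted.

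Factors IX (F9) and X (F10), vitamin K-dependent proteases of the middle of the cascade, and F13b, the carrier subunit of the fibrin crosslinker factor XIII, were lower in all 3 PBS libraries than in all 3 normal ones without passing the test. Their means in normal, PBS and HepLPC livers were 338 ± 15.1, 275 ± 23.4 and 291 ± 61.6 RPKM for F9, 248 ± 13.4, 205 ± 15.3 and 232 ± 26.6 RPKM for F10 and 148 ± 2.78, 119.8 ± 13.9 and 138 ± 26.2 RPKM for F13b. The differences for PBS against normal were -0.30 (SE 0.17) for F9, -0.28 (SE 0.13) for F10 and -0.31 (SE 0.16) for F13b, with adjusted p = 0.292, 0.21 and 0.252. The HepLPC group overlapped both other groups for each of the 3 genes, with HepLPC replicate 2 the lowest of its group.

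Factor VII (F7), which starts clotting together with tissue factor, lay the other way. F7 was at 27.4, 32.7 and 20.1 RPKM in the normal libraries, 40.5, 30.3 and 34.2 RPKM in the PBS libraries and 32.0, 24.0 and 26.2 RPKM in the HepLPC libraries. PBS replicate 1 was the highest library, and the groups overlapped. Its difference was 0.39 (SE 0.19, adjusted p = 0.226) for PBS against normal. HepLPC against PBS gave -0.34 (SE 0.19, adjusted p = 0.431), the largest difference of a clotting gene in that comparison. Without PBS replicate 1 and HepLPC replicate 2 the latter was -0.15, and Serpinc1 (0.42) and F13b (0.36) lay further from 0. Factor V (F5), the cofactor of factor X, was at 42.1, 33.8 and 34.9 RPKM in the normal libraries, 22.6, 43.2 and 47.5 RPKM in the PBS libraries and 39.2, 15.2 and 44.2 RPKM in the HepLPC libraries. PBS replicate 1 and HepLPC replicate 2 were the lowest libraries for F5, whose gene model is among the longest here. Without those libraries its difference for PBS against normal was 0.29 in place of -0.03, and that of HepLPC to normal livers 0.17 in place of -0.29.

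Of the 9 inhibitors and proteins of fibrin breakdown, Serpina1, antitrypsin, an inhibitor of neutrophil elastase, was the most abundant of all 38 genes. Serpina1 was at 5228, 4889 and 4867 RPKM in the normal libraries, 5820.1, 5281 and 4228 RPKM in the PBS libraries and 5916, 6167 and 6086 RPKM in the HepLPC libraries. All 3 HepLPC libraries lay above every normal and every PBS library, while the PBS and normal groups overlapped. The difference was 0.26 (SE 0.17, adjusted p = 0.507) for HepLPC against PBS, and 0.28 (SE 0.17, adjusted p = 0.701) for HepLPC against normal. Neither passed, and both 95% intervals included 0 (-0.13 to 0.65 and -0.11 to 0.67).

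Antithrombin (Serpinc1), the main inhibitor of thrombin and factor X, had the smallest adjusted p of the clotting genes for HepLPC against PBS and is given for that reason, chosen after its values were seen. Serpinc1 was at 1186, 1165 and 1217 RPKM in the normal libraries, 1011, 1099.7 and 762 RPKM in the PBS libraries and 1229, 1106 and 1215 RPKM in the HepLPC libraries. The 3 PBS libraries were the lowest of the 9, and the HepLPC group overlapped the normal group. Its difference was -0.33 (SE 0.16, adjusted p = 0.227) for PBS against normal, and 0.32 (SE 0.16, adjusted p = 0.378) for HepLPC against PBS. PBS replicate 3 was its lowest library, and without it these differences were -0.17 and 0.17. The plasmin inhibitor Serpinf2 averaged 264 ± 20.6, 227 ± 16.1 and 264 ± 13.7 RPKM in normal, PBS and HepLPC livers. It was higher in all 3 HepLPC libraries than in all 3 PBS libraries (0.22, SE 0.12, adjusted p = 0.433).

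For most of the remaining genes of this role the groups overlapped in every comparison, but not for protein C and protein S. Plasminogen (Plg), the precursor of plasmin, averaged 957 ± 57.9, 939.8 ± 122 and 929.8 ± 109 RPKM in normal, PBS and HepLPC livers, and its log2 fold changes were -0.03, -0.01 and -0.05 for PBS against normal, HepLPC against PBS and HepLPC against normal. Heparin cofactor II (Serpind1), another thrombin inhibitor, averaged 355 ± 21.5, 354 ± 16.1 and 367 ± 21.8 RPKM, and Cpb2, a carboxypeptidase that slows fibrin breakdown, 409 ± 17.0, 383 ± 34.2 and 394 ± 26.5 RPKM. The C1 inhibitor gene Serping1, which restrains both the contact pathway and complement, averaged 328 ± 68.2, 341 ± 47.7 and 326 ± 29.7 RPKM. Protein C (Proc) and its cofactor protein S (Pros1), which switch off factors V and VIII, were lower in all 3 PBS libraries than in all 3 normal libraries, with differences of -0.17 (adjusted p = 0.389) and -0.24 (adjusted p = 0.292). In HepLPC livers Pros1 also lay below every normal library (-0.18, adjusted p = 0.752), a difference of -0.08 without PBS replicate 1 and HepLPC replicate 2.

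**Figure D2:**
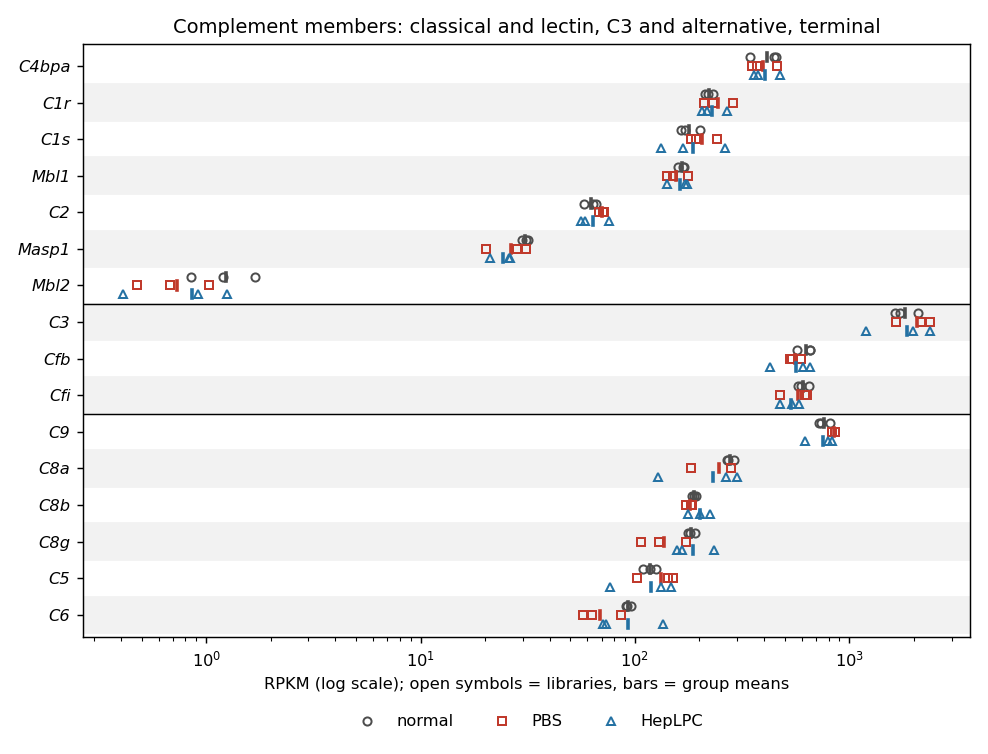
RPKM of the 16 complement genes on a log axis, drawn as for the clotting genes, with lines between the classical and lectin, C3 and alternative, and terminal genes. C3 was the highest and Mbl2 the lowest, and in C8a, C3 and C5 the lowest triangle, HepLPC replicate 2, lies apart from the other 2.

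In the classical and lectin pathways, C4bpa, which encodes the alpha chain of the C4b-binding protein that restrains these pathways, had the highest mean. C4bpa was at 446, 453 and 345 RPKM in the normal libraries, 460.0, 373 and 351 RPKM in the PBS libraries and 377, 359.8 and 477 RPKM in the HepLPC libraries. The groups overlapped, and its differences were -0.07 for PBS against normal, 0.03 for HepLPC against PBS and -0.04 for HepLPC against normal. The C1 proteases C1r and C1s, which start the classical pathway, averaged 221 ± 9.21, 243 ± 39.4 and 229.8 ± 33.7 RPKM and 179 ± 19.9, 205 ± 31.5 and 188 ± 67.5 RPKM in normal, PBS and HepLPC livers. C2, the protease of the classical C3 convertase, was higher in all 3 PBS libraries than in all 3 normal ones, at 70.3 ± 1.84 against 62.6 ± 4.22 RPKM (0.17, SE 0.14, adjusted p = 0.472).

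The lectin pathway recognises sugars on microbes through the mannose-binding lectins Mbl1 and Mbl2 and acts through the protease Masp1. Mbl1 averaged 165 ± 5.70, 156 ± 18.3 and 162 ± 19.0 RPKM in normal, PBS and HepLPC livers, and Mbl2 1.24 ± 0.422, 0.729 ± 0.284 and 0.859 ± 0.421 RPKM. Masp1, the longest gene model of the 38, averaged 30.8 ± 1.01, 26.5 ± 5.62 and 24.3 ± 2.85 RPKM. It was lower in all 3 HepLPC libraries than in all 3 normal libraries (-0.33, SE 0.16, adjusted p = 0.583), the smallest adjusted p of a complement gene in that comparison.

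C3, on which all complement routes converge, was at 2100.0, 1716 and 1630.3 RPKM in the normal libraries, 1644, 2383 and 2161 RPKM in the PBS libraries and 1984, 1202 and 2369.9 RPKM in the HepLPC libraries. The lowest library, HepLPC replicate 2, and the second highest, HepLPC replicate 3, belonged to the same group, and the groups overlapped. Its differences were 0.18 (SE 0.26) for PBS against normal, -0.19 (SE 0.26) for HepLPC against PBS and -0.02 (SE 0.26) for HepLPC against normal. Without PBS replicate 1 and HepLPC replicate 2, the first of these was 0.33 (adjusted p = 0.145), the second -0.07 (adjusted p = 0.84) and the third 0.27 (adjusted p = 0.458), with its sign turned. Factor B (Cfb), the protease of the alternative pathway, averaged 628 ± 49.0, 555 ± 34.7 and 563 ± 122 RPKM, and factor I (Cfi), which inactivates C3b, 605 ± 36.6, 577 ± 87.7 and 532 ± 55.8 RPKM. Relative to normal, Cfb was at -0.18 in PBS and -0.18 in HepLPC livers, and Cfi at -0.08 and -0.19, with adjusted p = 0.563 or more. Without the same libraries the HepLPC values were 0.01 for Cfb and -0.11 for Cfi.

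Of the terminal pathway, C9, which forms the pore of the membrane attack complex, had the highest mean. C9 was at 740.0, 816 and 724 RPKM in the normal libraries, 861, 859.6 and 834 RPKM in the PBS libraries and 798, 622 and 834 RPKM in the HepLPC libraries. All 3 PBS libraries lay above every normal library (0.17, SE 0.15, adjusted p = 0.516), and the HepLPC group overlapped both. C5, whose cleavage starts the assembly of the complex, averaged 118 ± 8.30, 132 ± 25.5 and 119 ± 37.5 RPKM in normal, PBS and HepLPC livers.

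C6, which binds activated C5, had the largest difference of a complement gene for PBS against normal, level with C8g to the digits given here. C6 was at 96.0, 91.0 and 92.1 RPKM in the normal libraries, 63.1, 86.0 and 57.2 RPKM in the PBS libraries and 73.5, 71.1 and 135 RPKM in the HepLPC libraries. The 3 PBS libraries lay below every normal library, and the HepLPC group overlapped both. The difference was -0.45 (SE 0.25, adjusted p = 0.274), and its 95% interval reached just past 2-fold lower. Without PBS replicate 1 and HepLPC replicate 2 the C6 difference was -0.40 (limma, adjusted p = 0.269), and that of C8g was then the largest, at -0.63.

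C8 is assembled from 3 chains, and over the 9 libraries their RNAs varied more in proportion than those of fibrinogen. Without PBS replicate 1 and HepLPC replicate 2 the C8a to C8b ratio ranged over only 1.23 times. C8a was at 291, 272 and 269 RPKM in the normal libraries, 182, 280.2 and 282 RPKM in the PBS libraries and 267, 128 and 300.4 RPKM in the HepLPC libraries. The libraries that stood apart were its 2 lowest, 0.648 times the other PBS libraries and 0.452 times the other HepLPC libraries. It had the largest difference of a complement gene for HepLPC against normal (-0.35, SE 0.30, adjusted p = 0.791), which without both libraries was 0.03. That difference rested on HepLPC replicate 2, since PBS replicate 1 does not enter it. The C8a difference for PBS against normal went from -0.19 to 0.02. C8b averaged 188 ± 3.92, 179.9 ± 5.55 and 201 ± 23.0 RPKM in normal, PBS and HepLPC livers, and was lower in all 3 PBS than in all 3 normal libraries by a small margin (-0.07, adjusted p = 0.767).

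C8g, a lipocalin-like chain, was at 178, 181 and 191 RPKM in the normal libraries, 172, 129 and 107 RPKM in the PBS libraries and 158, 234 and 166 RPKM in the HepLPC libraries. All 3 PBS libraries lay below every normal library, and HepLPC replicate 2 was the highest of the 9. The difference was -0.45 (SE 0.20, adjusted p = 0.184) for PBS against normal, and 0.45 (SE 0.20, adjusted p = 0.314) for HepLPC against PBS, the largest of a complement gene in that comparison. PBS replicate 1 and HepLPC replicate 2 were 1.46 and 1.44 times the rest of their groups. Without both, C8g was at -0.63 for PBS against normal (SE 0.11, adjusted p = 0.00938), and passed, and at 0.46 for HepLPC against PBS (SE 0.12, adjusted p = 0.0869), and did not.

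**Figure D3:**
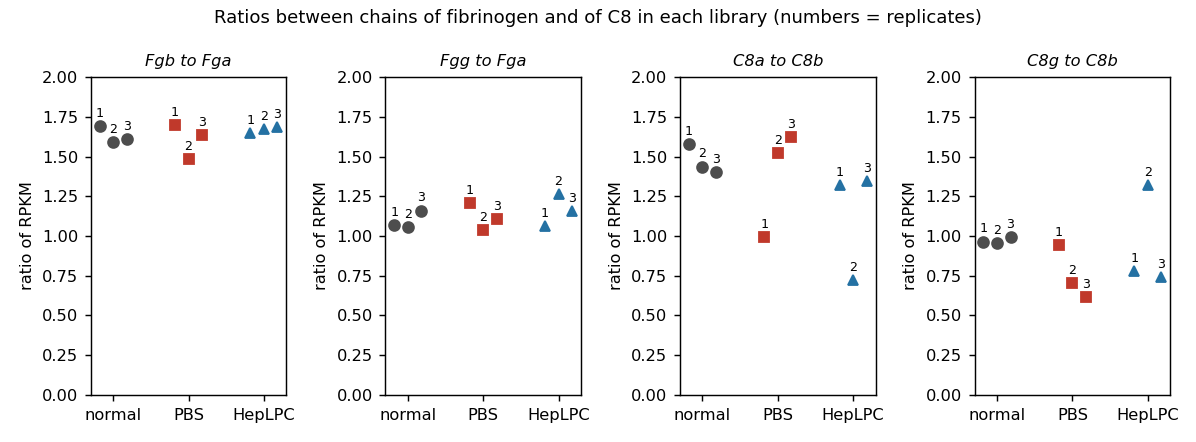
Ratios of RPKM within each library, numbered by replicate, for Fgb to Fga, Fgg to Fga, C8a to C8b and C8g to C8b, on axes from 0. The fibrinogen ratios stay between 1.48 and 1.70 and between 1.04 and 1.27, while the C8 ratios run from 0.721 to 1.62 and from 0.617 to 1.32, with PBS replicate 1 and HepLPC replicate 2 the lowest for C8a to C8b.

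The C8a to C8b ratio ranged over 2.25 times and the C8g to C8a ratio over 4.81 times, from 0.380 to 1.83. Over the 7 libraries other than PBS replicate 1 and HepLPC replicate 2 these ranges were 1.23 and 1.86 times. The C8g to C8b ratio was lower in all 3 PBS libraries than in all 3 normal libraries, at 0.755 ± 0.169 against 0.973 ± 0.0193 (SD, n = 3 each, exact permutation p = 0.1, the smallest possible). C1s relative to C1r ranged between 0.615 and 0.980 in the 9 libraries, with the lowest value in HepLPC replicate 2.

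**Figure D4:**
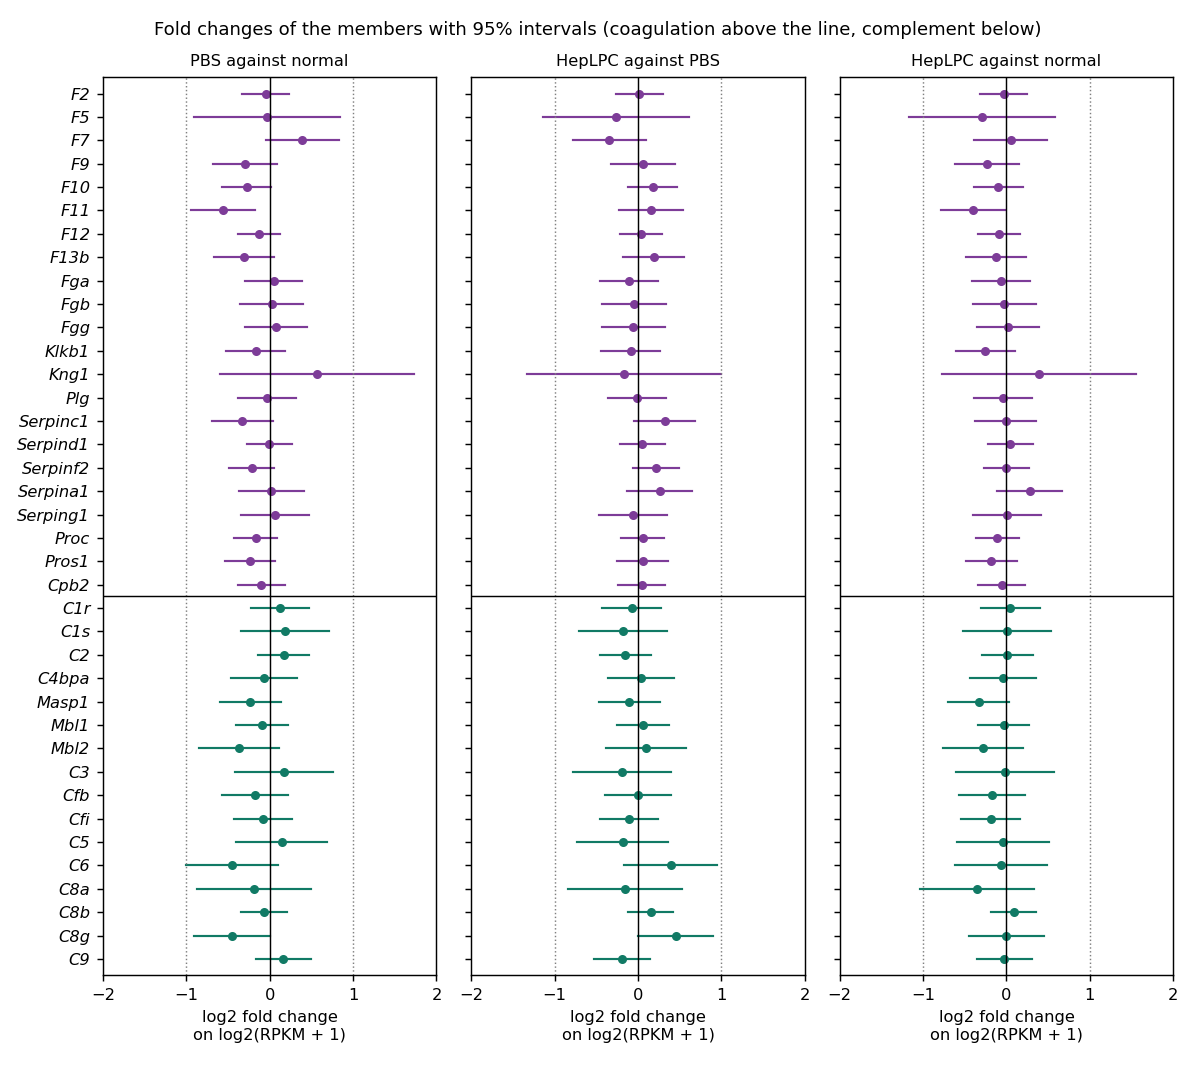
Log2 fold changes of the 38 genes with 95% intervals in the 3 comparisons, clotting genes above the line and complement genes below, on the log2(RPKM + 1) scale, with dotted lines at 2-fold. All intervals include 0 except those of F11 in the comparisons with normal livers, and most lie within 2-fold, with the widest for Kng1, F5 and C8a.

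For PBS against normal livers, the comparison of the injured with the healthy liver, more of these genes lay below normal than above. The log2 fold change was negative for 25 of the 38, 15 of 22 clotting genes and 10 of 16 complement genes, against 23.9% of all tested genes. The median was -0.07 for the clotting genes and -0.08 for the complement genes, against 0.18 for all genes. All 3 PBS libraries lay below all 3 normal libraries for 12 of 38 genes (31.6%), against 4.92% of all genes. They were 9 clotting genes (F9, F10, F11, F12, F13b, Klkb1, Serpinc1, Proc and Pros1) and 3 genes of the terminal complement pathway (C6, C8b and C8g). All 3 PBS libraries lay above the normal ones for C2 and C9, 2 of 38 genes, against 32.7%. Hepatocyte markers, counted further below, leaned the same way. Of 14 markers, 4 lay below all normal libraries in all 3 PBS libraries (28.6%) and 0 above, and 10 had a negative log2 fold change (71.4%). The lean was therefore not particular to the 38 genes.

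These differences were small. The 95% interval lay within 2-fold either way for 36 of the 38 genes, against 81.5% of all genes, the exceptions being Kng1 and C6. It lay within 1.5-fold for 15 of 22 clotting and 8 of 16 complement genes, against 38%. The scale matters here: rescaling the libraries by the median of ratios moved the median of all genes from 0.18 to -0.01, and of the 782 genes then called 566 were higher and 216 lower, in place of 1157 and 105. On that scale the medians were -0.32 for the clotting genes, 20 of 22 negative, and -0.32 for the complement genes, 16 of 16 negative, against 51.4% of all genes. F11 was the only member called on that scale, and 11 of 22 clotting and 6 of 16 complement genes had an unadjusted p under 0.05, against 21.1% of all genes.

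For HepLPC against PBS livers, which differed in what was injected, differences lay on both sides of 0. The median was 0.04 for the clotting genes and -0.09 for the complement genes, against -0.15 for all genes. Of the clotting genes 9 of 22 were negative and of the complement genes 10 of 16, against 73.9% of all genes. All 3 HepLPC libraries lay above all 3 PBS libraries for Serpinc1, Serpinf2 and Serpina1, 3 of 38 genes, against 2.79% of all genes, and below them for 0 of 38, against 15.6%. The 95% interval stayed within 2-fold for 36 of 38 genes, all but F5 and Kng1, against 84.9%, and within 1.5-fold for 17 clotting and 10 complement genes, against 46.6%. After rescaling by the median of ratios the medians were 0.23 and 0.10, with 2 of 22 and 1 of 16 negative, against 48.5% of all genes, so the sign of the complement median turned with the scale. It also turned without PBS replicate 1 and HepLPC replicate 2, to 0.02. On the rescaled values 21 of the called genes were higher and 183 lower over all genes, in place of 15 and 326.

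For HepLPC against normal livers the medians were -0.05 for the clotting genes and -0.03 for the complement genes, against 0.05 for all genes. The log2 fold change was negative for 15 of 22 and 12 of 16 genes, against 40.6%. Without PBS replicate 1 and HepLPC replicate 2 the medians were 0.02 and 0.05. They were the same without HepLPC replicate 2 alone, so these signs turned with that library. The groups did not overlap for F11, Pros1 and Masp1, lower in HepLPC livers (3 of 38, against 3.51% of all genes), and for Serpina1, higher (1 of 38, against 12.3%). The 95% interval was within 2-fold for 35 of the 38 genes, all but F5, Kng1 and C8a, against 89.2%, and within 1.5-fold for 26, against 55.1%. The comparisons share groups, so their values are not independent of each other.

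The clotting and complement genes were also summed within each library. The 22 clotting genes added up to 18609 ± 551 RPKM in normal livers, 19129 ± 3084 in PBS livers and 19630 ± 503 in HepLPC livers (SD, n = 3 each), which was 3.18%, 3.27% and 3.24% of a library's RPKM. The 16 complement genes added up to 5743 ± 376, 5907 ± 399 and 5602 ± 1170 RPKM, or 0.981%, 1.02% and 0.934%. HepLPC replicate 2 had the lowest complement sum, 4373 RPKM, while its clotting sum of 19053 RPKM lay among those of the other libraries. As a share of library RPKM it had the lowest value for both, 0.643% for complement and 2.80% for clotting. By 2-sided exact permutation tests, the clotting sums gave p = 0.9 for PBS against normal, 0.8 for HepLPC against PBS and 0.1 for HepLPC against normal, the last with all 3 HepLPC libraries above all 3 normal ones and p = 0.6 adjusted over the 6 sums tested. Without Kng1 the last p was 0.2 and the groups overlapped. Serpina1, the most abundant of the 22, averaged 4995 RPKM in normal and 6056 RPKM in HepLPC livers. That difference was about as large as the one between the clotting sums, and sums without Serpina1 were not tested. The complement sums gave p = 0.6, 0.8 and 0.8 by the same exact test.

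Clotting genes outside the 38, many of which cells other than hepatocytes also express, were counted beside them. Of 29 further clotting, anticoagulant and fibrinolytic genes 28 had a row and 22 were tested. F3, described below, passed the filter through PBS livers alone, and such genes favour rises in the count. In PBS livers 9 rose and 1 fell relative to normal, against 10.4% and 0.944% of all genes, and 4 fell in HepLPC relative to PBS livers, against 2.93%. The medians were 0.59 and -0.49, against 0.18 and -0.15 for all genes. Between HepLPC and normal livers 0 of the 22 were called by limma, against 0.0449% of all genes higher and 0.036% lower. Of the 22, 6 had an unadjusted p under 0.05, against 9.31% of all genes. Differences between this list and the 22 clotting members were not tested.

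The plasminogen-binding pair Anxa2 and S100a10, which assemble plasmin at cell surfaces, rose most. Anxa2 was at 5.81, 7.17 and 7.28 RPKM in the normal libraries, 46.7, 48.6 and 57.2 RPKM in the PBS libraries and 9.21, 13.1 and 20.1 RPKM in the HepLPC libraries. S100a10 was at 12.2, 13.3 and 11.6 RPKM in the normal libraries, 81.5, 58.8 and 86.6 RPKM in the PBS libraries and 16.7, 27.4 and 23.8 RPKM in the HepLPC libraries. Every PBS library was above every other library for both genes, and the HepLPC libraries lay above the normal ones. Anxa2 rose by 2.74 (SE 0.23) in PBS livers (adjusted p = 0.000281) and S100a10 by 2.50 (SE 0.20, adjusted p = 0.000217), and in HepLPC relative to PBS livers they were at -1.83 (SE 0.23, adjusted p = 0.00516) and -1.71 (SE 0.20, adjusted p = 0.00435). Both calls held in all 18 alternatives of both comparisons.

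Tissue factor (F3), the trigger of clotting, was at 0.425, 0.441 and 0.474 RPKM in the normal libraries, 3.04, 2.22 and 4.18 RPKM in the PBS libraries and 0.410, 0.175 and 0.812 RPKM in the HepLPC libraries. It was above all other libraries in the 3 PBS livers, while the HepLPC and normal livers overlapped. F3 rose by 1.49 (SE 0.20, adjusted p = 0.00195), and for HepLPC against PBS it was at -1.50 (SE 0.20, adjusted p = 0.00657), calls that also held in all 18 alternatives. Only the PBS libraries reached 1 RPKM for F3, so it passed the filter through that group alone. Its 2 calls are therefore not independent of the filter. Serpine2, an inhibitor of thrombin in tissue, rose in PBS livers by 1.25 (SE 0.20, adjusted p = 0.00442), from 4.10 ± 0.629 to 11.4 ± 3.20 RPKM. Fgl2, a fibrinogen-like prothrombinase, is named because it was called in both comparisons, rising by 0.87 in PBS livers and at -0.77 in HepLPC relative to PBS livers, the latter call lost in 7 of 18 alternatives.

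The remaining called genes of this list, named after their values were seen, were Vwf, F2r, Tfpi and Thbd, higher in PBS livers, and Serpina5, lower. Von Willebrand factor (Vwf), a platelet adhesion protein of endothelium, was at 0.924 ± 0.168 and 2.63 ± 0.889 RPKM in normal and PBS livers (0.89). The thrombin receptor F2r was at 0.55, the tissue factor pathway inhibitor Tfpi at 0.55 and thrombomodulin (Thbd), the thrombin-binding cofactor of protein C activation, at 0.68. Serpina5, the protein C inhibitor, was at 3.21 ± 0.842 and 1.51 ± 0.187 RPKM (-0.73, adjusted p = 0.0383). Of 18 alternatives, the call was lost in 4 for Vwf, 7 for F2r, 8 for Tfpi, 15 for Thbd and 7 for Serpina5.

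**Figure D5:**
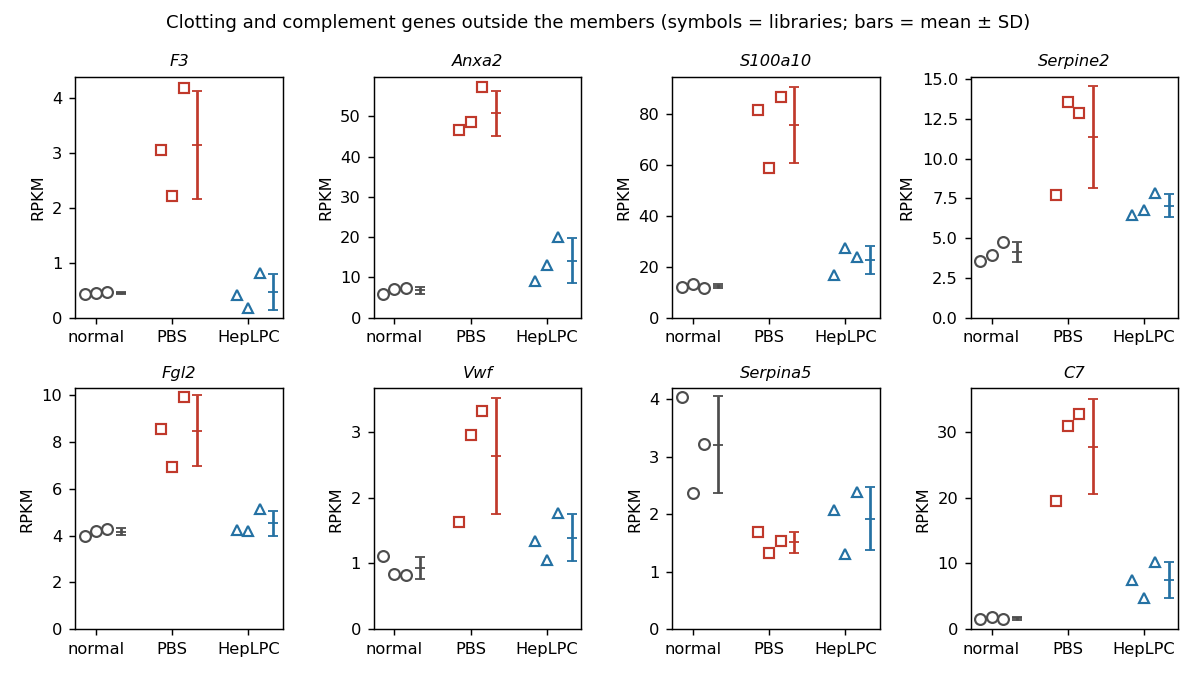
RPKM in each library (circles normal, squares PBS, triangles HepLPC, with mean ± SD) of 8 clotting and complement genes outside the 38, on linear axes from 0. F3, Anxa2, S100a10 and C7 are highest in all 3 PBS libraries, and Serpina5 is lower in all 3 PBS libraries than in all 3 normal ones.

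Among 34 further complement genes, all with a row and 24 tested, 1 rose in PBS livers (4.17%, against 10.4% of all genes) and the same gene, C7, was lower in HepLPC than in PBS livers (4.17%, against 2.93%). C7, the terminal component between C6 and C8, was at 1.45, 1.80 and 1.59 RPKM in the normal libraries, 19.5, 31.0 and 32.8 RPKM in the PBS libraries and 7.44, 4.65 and 10.1 RPKM in the HepLPC libraries. The 3 groups did not overlap for C7, in the order normal, HepLPC, PBS. It rose by 3.43 (SE 0.26) in PBS livers (adjusted p = 0.000217) and was at -1.79 (SE 0.26) for HepLPC against PBS (adjusted p = 0.00863), a call lost in 1 of 18 alternatives. For HepLPC against normal it was at 1.64 (SE 0.26, adjusted p = 0.0923), and passed in 3 of 18 alternatives: with a pseudocount of 0.1, without HepLPC replicate 2, and without both that library and PBS replicate 1. The most abundant other genes, vitronectin (Vtn) and clusterin (Clu), inhibitors of the membrane attack complex, averaged 2039 ± 222, 1769.8 ± 254 and 2245 ± 71.9 RPKM and 456 ± 111, 657 ± 95.8 and 414 ± 45.4 RPKM in normal, PBS and HepLPC livers, with adjusted p = 0.457 and 0.122 for PBS against normal.

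Genes that serve these proteins were counted next. Of 8 genes for the vitamin K cycle and for factor secretion, 7 were tested and 1 rose in PBS livers (14.3%, against 10.4% of all genes), the quinone reductase Nqo1 (2.89, SE 0.53, adjusted p = 0.0083), which also has roles outside clotting, and which was at -2.90 (SE 0.53) for HepLPC against PBS (adjusted p = 0.0211), a call lost in 6 of 18 alternatives. The reductase Vkorc1, the target of warfarin, was at -0.12 in PBS and 0.04 in HepLPC livers, each relative to normal. Of 15 acute phase genes 14 were tested, and Lcn2 and Lbp, the lipopolysaccharide-binding protein, rose in PBS livers, by 3.64 (adjusted p = 0.000971) and 1.05 (adjusted p = 0.0221), or 2 of 14 (14.3%). The call of Lbp was lost in 6 of 18 alternatives and that of Lcn2 in 0. Lcn2 was at -2.99 for HepLPC against PBS (adjusted p = 0.00795). Haptoglobin (Hp) and Crp, the most abundant of that list, were at 6309 ± 1502, 7692 ± 2082 and 8036 ± 1164 RPKM and 6889.8 ± 1096, 4459 ± 1616 and 5239.5 ± 1894 RPKM. Of 19 transcription factors and signalling genes known to act on hepatocyte genes 18 were tested and 1 (5.56%), Stat3, rose in PBS livers (0.72, SE 0.20, adjusted p = 0.0492), a call lost in 14 of 18 alternatives. Cebpa and Hnf4a were at 101 ± 25.8, 82.8 ± 28.4 and 79.1 ± 3.20 RPKM and 80.6 ± 10.6, 92.9 ± 9.86 and 87.5 ± 16.0 RPKM. For HepLPC against normal, limma called 0 genes of these 4 lists. An unadjusted p under 0.05 was reached by 1 of 7 vitamin K genes, 1 of 24 complement genes, 0 of 14 acute phase genes and 2 of 18 regulators. The share of all genes was 9.31%.

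Cell type markers were counted beside these results. All 14 hepatocyte markers passed the filter, as the labelled tissue asks, and 0 were called by limma in each comparison. Their medians were -0.11 for PBS against normal, 0.14 for HepLPC against PBS and 0.02 for HepLPC against normal. In that order 1, 1 and 0 of them had an unadjusted p under 0.05, against 27.3%, 16.1% and 9.31% of all genes. Their summed RPKM was 92830 to 111400 in normal, 84970 to 95140 in PBS and 93070 to 110400 in HepLPC livers. Albumin (Alb) and transferrin (Tf), the most abundant, averaged 57698 ± 9649, 51801 ± 4045 and 59349.5 ± 5676 RPKM and 13690.3 ± 1785, 14842 ± 827 and 12994 ± 373 RPKM. Cholangiocyte markers rose in PBS livers for 10 of 10 tested genes (100%, median 1.72), of 12 listed. A marker low in the other groups could pass the filter through PBS livers alone, which favours rises among the tested markers. Stellate cell and myofibroblast markers rose for 8 of 12 (66.7%) and macrophage markers for 3 of 11 (27.3%), against 10.4% of all genes. In the same order, 10, 2 and 3 markers (100%, 16.7% and 27.3%) were lower in HepLPC than in PBS livers, against 2.93% of all genes. In PBS livers the calls held in all 18 alternatives for 9 of the 10, 4 of the 8 and 3 of the 3, but for HepLPC against PBS only for 3 of the 10 (Sox9, Cd24 and Prom1), 0 of the 2 and 2 of the 3 (Lyz2 and Gpnmb), with single calls lost in up to 15. The smallest adjusted p were those of Sox9 (1.70), Prom1 (1.34), Cd24 (3.38) and Epcam (1.73) for cholangiocytes, of the collagens Col3a1 (2.20) and Col1a1 (2.61), Des (0.89) and Dcn (1.89) for stellate cells, and of Gpnmb (1.99), Lyz2 (2.46) and Trem2 (adjusted p = 0.00118) for macrophages, where values without a p are differences of PBS to normal livers. In HepLPC relative to PBS livers the corresponding genes were Sox9 (-1.43), Prom1 (-1.18), Cd24 (-2.84) and Epcam (-1.57), Col1a1 (-1.88) and Col3a1 (-0.92), and Gpnmb (-1.45), Lyz2 (-2.27) and Trem2 (-1.24). Summed cholangiocyte markers were at 26.0 to 31.0 RPKM in normal, 79.8 to 220.0 in PBS and 25.6 to 40.0 in HepLPC livers, stellate and myofibroblast markers at 41.3 to 45.2, 109 to 181 and 68.0 to 92.0, and macrophage markers at 169 to 228, 317 to 427 and 192 to 274. Of the endothelial, lymphocyte and platelet lists, 9, 4 and 3 genes were tested and 0 called by limma. For PBS against normal 2, 0 and 0 had an unadjusted p under 0.05, against 27.3% of all genes. The most abundant of these lists were Lyve1 and Eng, at 31.6 ± 2.05 and 19.2 ± 1.85 RPKM in normal livers, Ptprc and Nkg7 (2.78 ± 0.225 and 1.53 ± 0.784) and Pf4 and Itgb3 (15.5 ± 12.4 and 3.14 ± 0.375). None of these lists held a gene at 0 in every library. The part of changed cell composition in the values of the 38 genes was not tested.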

How the data were processed

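The deposited files hold RPKM per gene, 1 column per library, per the file headers. Per the submitters' processing notes, HISAT2 and StringTie were used and hg19, a human build, is named, although the row symbols are those of rat genes. The build and annotation behind the values are therefore uncertain, and the handling of reads shared between similar genes is not given here. Whole reads and gene-model lengths were recovered from the RPKM of all 11124 tested genes (tolerance 0.01 read), a step tested on simulated data.

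The deposited RPKM were tested as log2(RPKM + 1), a scale that understates changes of low genes, with limma 3.58.1 in R 4.3.3 (1 model of all 9 libraries, a term per group, mean-variance trend, 2-sided). Genes needed at least 1 RPKM in 3 libraries, and calls were made at an adjusted p (Benjamini-Hochberg) under 0.05. SDs and n are over the 3 libraries of a group. Alternatives were another pseudocount (0.1), no filter, 2 other normalizations, only the groups compared, no trend, a replicate block and left-out libraries. The voom fit was added after the data were seen. Ratios and sums within a library were tested by exact permutation (Python 3.11.15, scipy 1.17.1).

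The 38 genes, the other gene lists and the tests were chosen with earlier results of these data known. Every member is named. Values per library are given for F2, C3, the fibrinogen chains, the most abundant gene of each role and the largest difference of each system in each comparison, and genes singled out otherwise are marked. Of each other list, up to 4 called genes per comparison with the smallest adjusted p are named, or the 2 most abundant where none was called.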

Additional observations from a re-analysis of the deposited data

How the results depend on the processing

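Of 18 alternatives, 15 called 0 of the 22 clotting genes for PBS against normal and 17 called 0 of the 16 complement genes. The count was 1 clotting gene (F11) after rescaling by the median of ratios, and 0 to 1 when each library was left out in turn, with F11 called without PBS replicate 2 and without HepLPC replicate 2. It was 1 complement gene (C8g) without both PBS replicate 1 and HepLPC replicate 2. For the other comparisons all 18 alternatives called 0 of the 38 genes. Of 2052 estimates for the 38 genes under alternatives, 173 changed sign, 0 of them with a call in either fit. The clotting median for PBS against normal ran from -0.32 to -0.06 and the complement median from -0.32 to -0.03. For HepLPC against PBS they ran from -0.01 to 0.23 and from -0.17 to 0.10. The causes of these shifts were not tested.

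Counts over all genes moved more. For PBS against normal the count was 1262, and it was 782 after rescaling, 714 with quantile normalization (492 higher, 222 lower), 3168 without both libraries, and 562 to 1809 when each library was left out in turn. For HepLPC against PBS it was 341, and 204, 213 and 86 after rescaling, with quantile normalization and with only the 2 groups compared, and 90 to 398 when each was left out. For HepLPC against normal it was 9, and 0 without the filter on low values, 5 after rescaling, 3 with quantile normalization, 16 without both libraries, 0 with voom, and 1 to 14 when each was left out. With the replicate block the counts were 787, 198 and 1, and the block changed no call among the 38 genes. Only 3 of 9 same-number pairs of libraries deviated together at r over 0.1 (range -0.412 to 0.310), which shows no clear pairing by number. The check cannot exclude a pairing, since PBS replicate 1 and HepLPC replicate 2 stood apart and deviated together (r = 0.61). The 2 planned count models were not run, and the voom fit on recovered reads stands in their place. With 3 libraries a group precision was limited, and the parts of counting noise and of the spread between libraries in it were not tested.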
